A study of Sus scrofa with 2 samples.

Results

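Phosphocreatine and adenine nucleotide enzymes were followed at the transcript level across muscle fibre types in 2 sections of pig psoas major. The set held 7 genes out of 31780 features of the count matrices, matched by symbol and grouped by function: the cytosolic and mitochondrial creatine kinases CKM and CKMT2, the creatine-making enzyme GAMT, the adenylate kinase AK1, and the purine nucleotide cycle enzymes AMPD1, ADSS1 and ADSL. All 7 were present in both matrices. Together they took 3.19% of all UMIs in section 1 and 3.27% in section 2, most of it from CKM.

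The tissue was psoas major from female Landrace pigs, an untreated muscle of the loin that the labels call oxidative and slow, and the 2 sections came from muscle of 2 pigs. Each cryosection was 15 µm thick and lay on its own capture area of the same Visium slide, a slide printed with barcoded spots that catch polyadenylated RNA, in which a unique molecular identifier (UMI) marks each molecule. The labels give 1 group, so comparisons were made between kinds of spot inside the sections. A spot may cover pieces of more than 1 fibre together with connective tissue, so it is no cell, and fewer fibres of a type cannot be told apart from less RNA per fibre.

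Muscle in a burst of work uses ATP faster than mitochondria can deliver it. Creatine kinase in the cytosol moves phosphate from phosphocreatine to ADP at the myofibrils, while creatine kinase between the mitochondrial membranes charges creatine with phosphate from newly made ATP. Adenylate kinase makes ATP and AMP from a pair of ADP molecules, and the purine nucleotide cycle then turns AMP into IMP (AMPD1), joins IMP to aspartate (ADSS1) and releases fumarate to form AMP again (ADSL). Fast fibres are known for large phosphocreatine stores and high activities of creatine kinase, adenylate kinase and AMP deaminase, and slow fibres for a dense mitochondrial network.

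Spots were ordered by their myosin heavy chains, of which MYH7 marks slow fibres and MYH2 and MYH4 mark fast fibres. MYH1, the myosin of fast type IIX fibres, which the study left unquantified because of annotation errors, is in neither share. Spots rich in it are therefore placed by the other 3 myosins alone. Those with at least 5 UMIs of the 3 myosins were put in 5 bins of equal width, 0.2, by the MYH7 share of these UMIs. Spots with an MYH7 share of 0.5 or less and at least 5 UMIs of MYH2 and MYH4 were put in 4 bins by the MYH4 share of the MYH2 and MYH4 UMIs (0, up to 0.2, up to 0.4, and above). After filtering, 2430 spots of section 1 and 2878 of section 2 were used, with medians of 928.5 and 1350.5 UMIs per spot, and 581 and 442 of them had too few myosin UMIs for the MYH7 bins. Depth moved with the MYH7 bin: the median was 570, 944, 1252, 1893 and 3092 UMIs per spot over the bins of section 1 and 742, 1240, 1619, 2669.5 and 3676.5 over those of section 2. The share of mitochondrially encoded UMIs moved with it, with 10.9% in the lowest and 19.6% in the highest bin of section 1, and 10.2% and 19.1% in those of section 2. Levels are given as CPM, UMIs per 1000000 UMIs of a section and bin, with exact Poisson 95% intervals that cover counting error only.

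All 7 genes are annotated in RefSeq for Sscrofa11.1. CKM (ENSSSCG00000036132) lies on chromosome 6 at 51704021 to 51716935 on the minus strand, and CKMT2 (ENSSSCG00000014128) on chromosome 2 at 89796470 to 89830293 on the plus strand. GAMT (ENSSSCG00000023142) is at 77076566 to 77079751 of chromosome 2, plus strand. AK1 (ENSSSCG00000005627) is at 268355032 to 268365659 of chromosome 1, minus strand, and AMPD1 (ENSSSCG00000006754) at 105868834 to 105892171 of chromosome 4, plus strand. ADSL (ENSSSCG00000000077) lies at 8027799 to 8045480 of chromosome 5, minus strand. ADSS1 (ENSSSCG00000037334), which RefSeq lists under the older symbol ADSSL1, lies on a scaffold not assigned to a chromosome, at 3008680 to 3024941 on the plus strand. No other protein-coding RefSeq gene overlapped any of the 7.

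The 250 bases before the first annotated transcript start are shown for the member that rose with the MYH7 share (CKMT2) and for a pair that fell along it with nearly the same course (AK1 and AMPD1), so that the letters before genes of opposite and of like course can be compared. Capitals mark matches on either strand to the E-box CANNTG, to the M-CAT element CATTCC and to the MEF2 motif. The windows lie at chr2:89796220-89796469 (CKMT2, plus strand), chr1:268365660-268365909 (AK1, minus strand) and chr4:105868584-105868833 (AMPD1, plus strand) of Sscrofa11.1, read 5′ to 3′ on the strand of the gene.
CKMT2: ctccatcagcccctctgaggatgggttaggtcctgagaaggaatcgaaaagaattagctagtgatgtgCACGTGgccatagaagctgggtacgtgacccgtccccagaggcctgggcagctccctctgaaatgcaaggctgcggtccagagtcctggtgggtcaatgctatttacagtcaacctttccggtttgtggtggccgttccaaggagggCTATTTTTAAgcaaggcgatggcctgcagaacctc
AK1: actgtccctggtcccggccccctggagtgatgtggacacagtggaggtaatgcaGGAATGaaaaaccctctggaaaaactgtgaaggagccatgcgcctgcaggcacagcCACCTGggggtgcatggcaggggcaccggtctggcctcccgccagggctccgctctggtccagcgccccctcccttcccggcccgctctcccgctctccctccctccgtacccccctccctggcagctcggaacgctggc
AMPD1: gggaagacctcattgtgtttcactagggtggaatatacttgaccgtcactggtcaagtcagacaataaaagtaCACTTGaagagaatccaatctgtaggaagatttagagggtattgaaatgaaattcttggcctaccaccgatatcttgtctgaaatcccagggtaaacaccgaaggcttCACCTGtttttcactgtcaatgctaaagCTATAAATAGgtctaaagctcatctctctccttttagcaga
A MEF2 match stood 35 to 26 bases before the CKMT2 start and 41 to 32 bases before the AMPD1 start, and the AMPD1 match overlaps a TATAAA at 40 to 35 bases. The AK1 window held no MEF2 match, but an E-box at 140 to 135 bases and an M-CAT element at 196 to 191 bases. Among the windows of 20640 protein-coding genes, 2.7% held the MEF2 motif, 10.4% CATTCC, 10.4% TATAAA and 62.3% CANNTG, against 2, 1, 1 and 5 of the 7 members. So the same motif stood before a member that rose with the MYH7 share and before a member that fell. These are matches of letters only, and the AK1, AMPD1 and CKMT2 starts are those of predicted transcripts.

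Along the MYH7 share, 1 of the 7 members rose in CPM (CKMT2), 5 fell (AK1, AMPD1, GAMT, ADSS1 and CKM) and ADSL did not pass the test. Counts were summed per section and bin, and the slope on the MYH7 share was tested with edgeR's quasi-likelihood test with the section as a block. Of 3857 genes tested, 13.5% rose and 14.5% fell, and the median slope of all genes was -0.06. The median of the 7 members was -1.21. A slope is the log2 change in level over a full unit of the share (0 to 1). All of these slopes are relative to total UMIs adjusted by edgeR's TMM factors (0.92 to 1.07), so a slope can differ from the change in CPM. Scaled to the number of spots instead, the median slope of all genes was 2.41, all 7 members had positive slopes and all but AK1 passed the test.

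**Figure D1:**
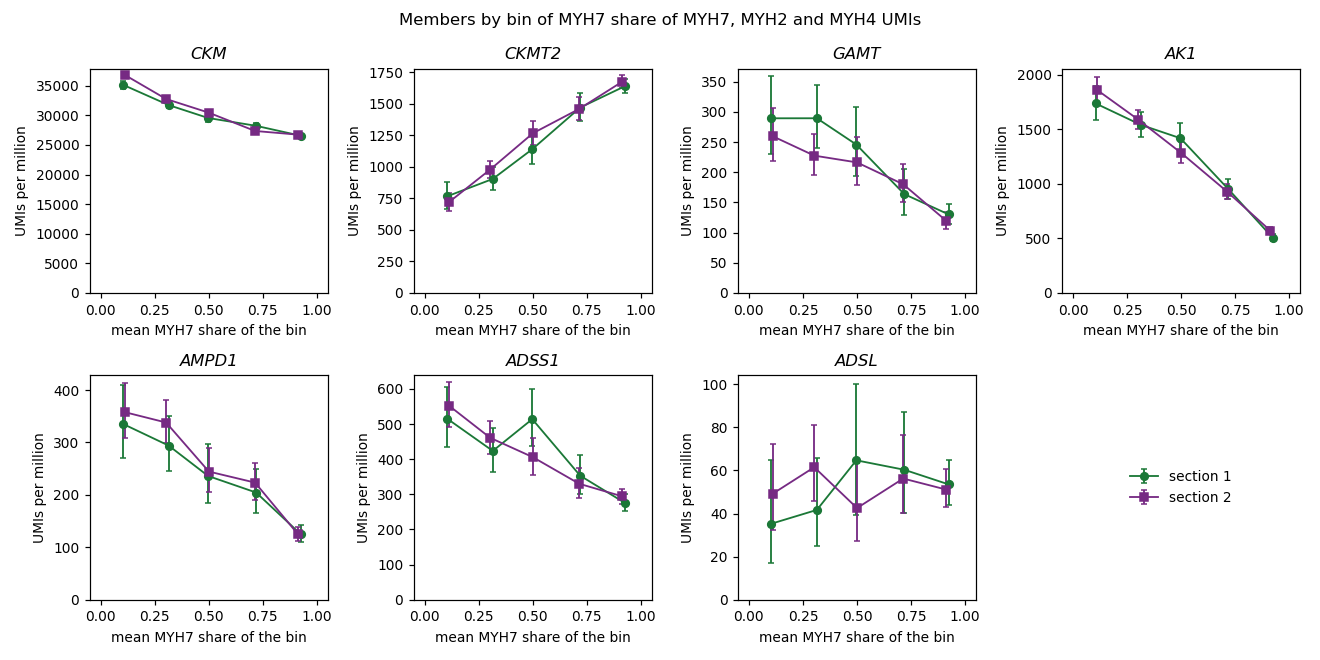
Level of each member (CPM, y axis from 0) in the 5 bins of MYH7 share, drawn at the mean share of each bin. Green circles are section 1 and purple squares section 2, and bars are exact Poisson 95% intervals. CKMT2 climbs to 1637 and 1673 CPM in the highest bin while AK1 drops to 505 and 570.4 CPM; counted per spot rather than in CPM, AK1 was higher in the highest than in the lowest bin and highest between them.

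CKM, the cytosolic creatine kinase, was the most abundant member by far. Its level over the MYH7 bins, low to high, was 35150.3, 31736, 29557, 28233 and 26567 CPM in section 1, and 36840.0, 32770.4, 30454, 27363 and 26739.8 CPM in section 2. Every step in both sections was downward, but the whole range was narrow, and the log2 change between the lowest and the highest bin was only -0.40 in section 1 and -0.46 in section 2. The fitted slope was -0.66 (SE 0.12, edgeR adjusted p = 9.65e-05). CKM had at least 1 UMI in 2427 of 2430 spots of section 1 and in all 2878 spots of section 2.

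The CKM slope moved with depth. In spots of interquartile depth it was -0.26 and did not pass (edgeR adjusted p = 0.0993), and without section 2 it was -0.53 and did not pass (adjusted p = 0.137). Spots were also divided by their total UMIs, a division made after the levels had been seen. In spots of 2000 or more UMIs, CKM stood at 26552, 28614, 27302, 27139 and 26167 CPM over the bins of section 1, with no steady course. The lowest of these bins held only 14 spots, with a CKM interval of 24868 to 28321 CPM. The same depth class of section 2 had 32529, 29529, 28124, 26574 and 26480.1 CPM, downward at every step. In spots under 1000 UMIs the values were 37785, 36555, 33799, 32290.4 and 31173 CPM in section 1, and 40277, 38988, 36410.1, 34606 and 32891 CPM in section 2. Within every bin of both sections, then, shallow spots had a higher share of CKM than deep ones. The spots with too few myosin UMIs, the shallowest of all with medians of 219 and 254.5 UMIs, had the highest CKM of any class, 39827 and 41809.5 CPM. ACTA1, the skeletal muscle actin, ran most closely beside CKM, with a Pearson r of 0.996 over the 10 sums after the mean of each section was taken off, and RPL10 and RPS2, which encode ribosomal proteins, came next (0.984 and 0.983). Whether depth itself sets the CKM share was not tested.

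CKMT2, the creatine kinase of muscle mitochondria, ran the other way. It stood at 766, 903, 1138, 1468 and 1637 CPM over the MYH7 bins of section 1 and at 718, 977, 1265, 1457 and 1673 CPM over those of section 2. Each step was upward in both sections, and the highest bin was above the lowest by 1.10 and 1.22 log2 units. The fitted slope was 1.33 (SE 0.12, edgeR adjusted p = 9.71e-10), or 2.51-fold over a full unit of MYH7 share. In spots of interquartile depth the slope was 1.23, and in spots of 2000 or more UMIs the lowest and highest bins had 891 and 1646 CPM in section 1 and 930.4 and 1688 CPM in section 2. The course of CKMT2 was thus present within the class of depth where CKM in section 1 had no steady course. The lowest bin of section 1 in that class rests on 14 spots and 31 CKMT2 UMIs, with an interval of 605 to 1264 CPM.

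**Figure D2:**
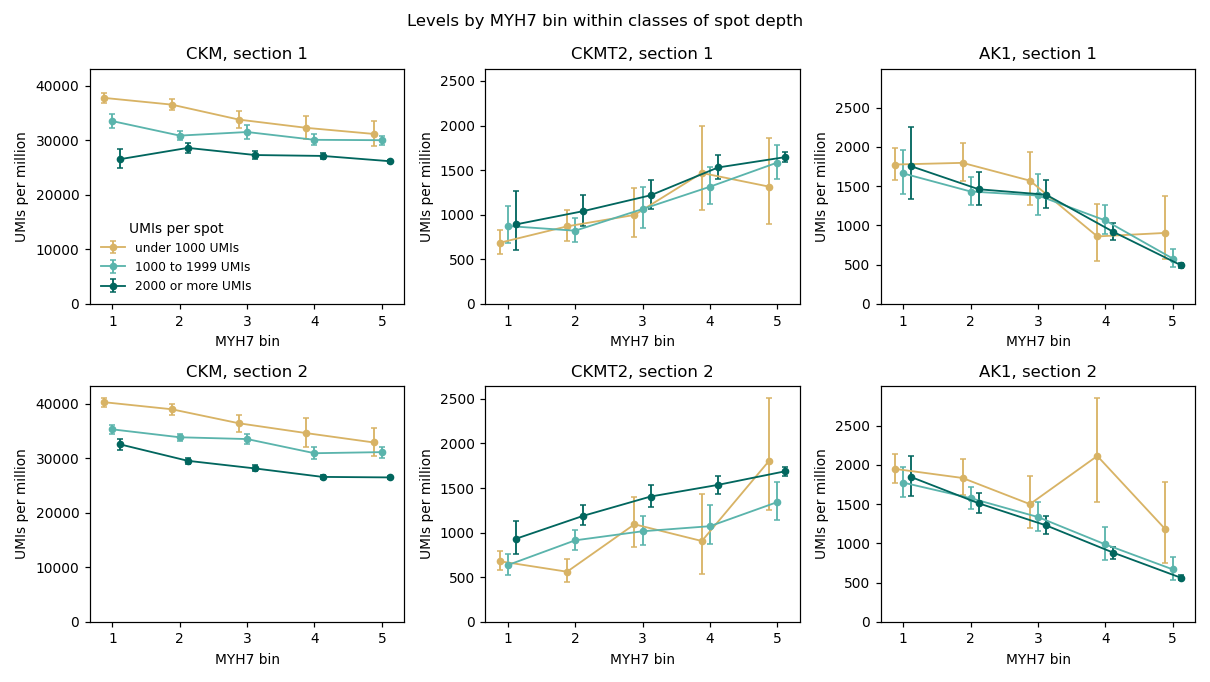
Levels of CKM, CKMT2 and AK1 (CPM, y axis from 0) by MYH7 bin within 3 classes of total UMIs per spot, with section 1 above and section 2 below. Bars are exact Poisson 95% intervals. For CKM the level was lower the deeper the class in every bin, whereas within every class CKMT2 is higher and AK1 lower in the highest than in the lowest bin. The AK1 point that stands off, bin 4 of section 2 under 1000 UMIs, rests on 30 spots. Bin 1 of section 1 at 2000 or more UMIs rests on 14 spots.

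The balance of the creatine kinases therefore shifted along the MYH7 share. Per 100 CKM UMIs there were 2.18, 2.84, 3.85, 5.20 and 6.16 CKMT2 UMIs over the bins of section 1 (the lowest 1.90 to 2.49 and the highest 5.94 to 6.38, exact 95% intervals). Section 2 had 1.95, 2.98, 4.15, 5.33 and 6.26. The intervals of neighbouring bins did not overlap in either section. Such a ratio within a sum does not depend on whether levels are scaled to UMIs or to spots. It compares UMIs of transcripts and is no ratio of molecules of enzyme. In the lowest bin the ratio was higher in deep than in shallow spots. Under 1000 UMIs per spot, 113 CKMT2 UMIs stood beside 6235 of CKM in section 1 and 154 beside 9140 in section 2. At 2000 or more UMIs there were 31 beside 924 and 106 beside 3706. The highest bin had 2908 beside 46229 and 4193 beside 65765 in that depth class. The ratio there still rose between the end bins, but by less than over all spots.

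CKMT2 also gained on SLC25A4, the muscle ADP/ATP carrier of the inner mitochondrial membrane, which hands ATP to it. In section 1 there were 59.1, 68.4, 75.2, 74.0 and 73.8 CKMT2 UMIs per 100 SLC25A4 UMIs over the bins, and in section 2 there were 58.0, 71.8, 77.4, 73.2 and 73.2. The ratio was lowest in the lowest bin of both sections and level over the upper bins, and the exact intervals of the lowest and the highest bin did not overlap (49.8 to 70.1 and 70.5 to 77.3 in section 1). The genes with the course most like CKMT2 were COX7A1, COQ8A and the mitochondrially encoded COX2 (Pearson r of 0.995, 0.994 and 0.993 over the 10 sums, out of 1311 candidates), which serve cytochrome oxidase and coenzyme Q synthesis. CKB, the cytosolic creatine kinase of brain, had only 18 UMIs in section 1 and 19 in section 2 and did not enter the test.

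**Figure D3:**
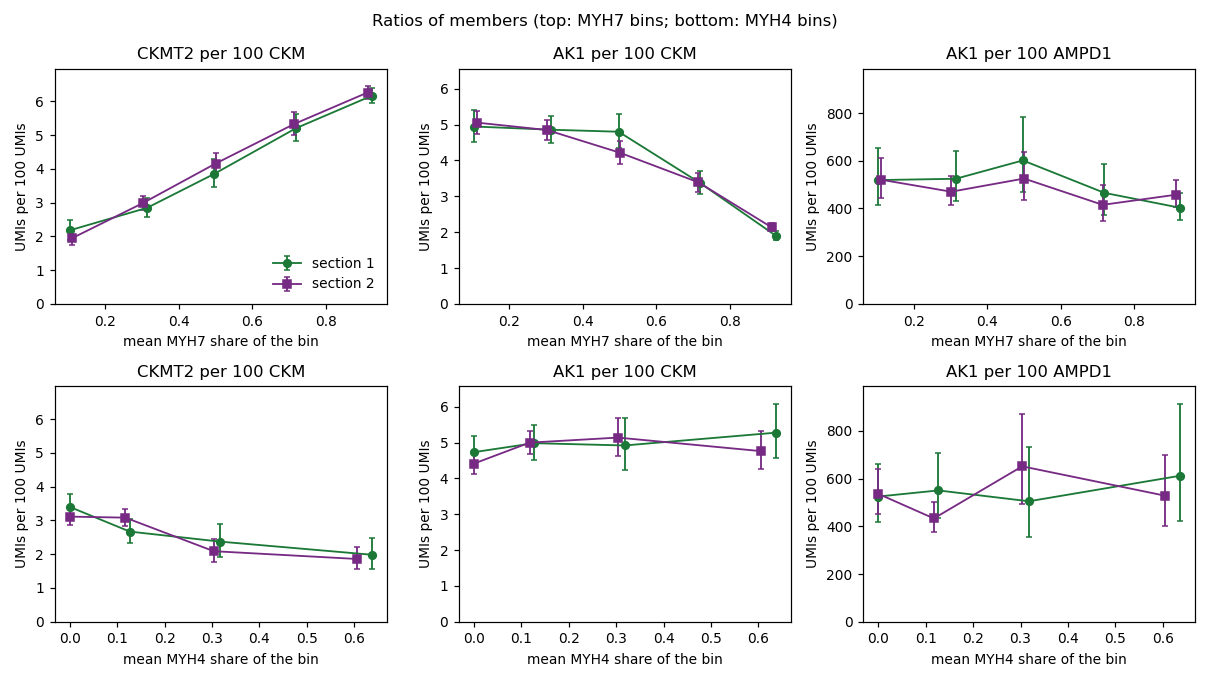
Ratios of UMIs of CKMT2 to CKM, AK1 to CKM and AK1 to AMPD1 (UMIs per 100 UMIs, y axis from 0) over the MYH7 bins (top) and the MYH4 bins (bottom), drawn at the mean share of each bin. Green circles are section 1, purple squares section 2, and bars are exact 95% intervals. CKMT2 per 100 CKM climbs along the MYH7 share to 6.16 and 6.26 and declines along the MYH4 share, to 1.98 and 1.86.

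GAMT, which methylates guanidinoacetate to creatine, stood at 289, 289, 246, 164 and 129.9 CPM over the MYH7 bins of section 1. In section 2 it stood at 259, 227, 216, 179.9 and 119 CPM. The highest bin was the lowest in level in both sections, with intervals (114 to 147 CPM in section 1 and 106 to 133 CPM in section 2) clear of those of the lowest bin. The slope was -1.56 (SE 0.16, edgeR adjusted p = 2.25e-08). In spots of 2000 or more UMIs GAMT stood at 201, 265, 231, 144 and 130 CPM over the bins of section 1. Section 2 had 176, 192, 219, 177 and 119 CPM there, and neither section fell at every step. In that depth class the intervals of the lowest and the highest bin overlapped in both sections. The lowest bin of section 1 in that class rests on 14 spots and 7 GAMT UMIs. SLC6A8, the creatine transporter, was the other gene of creatine supply with enough counts, and it fell with a slope of -0.72 (edgeR adjusted p = 0.0298). GATM, which makes the guanidinoacetate that GAMT uses, did not enter the test.

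AK1, the adenylate kinase of the muscle cytosol, had the steepest slope of the 7. Over the MYH7 bins it stood at 1739, 1542, 1419, 952 and 505 CPM in section 1 and at 1863, 1589.6, 1285, 928 and 570.4 CPM in section 2. The log2 change between the lowest and the highest bin was -1.78 in section 1 and -1.71 in section 2, with the largest step in both sections between the last 2 bins (-0.91 and -0.70). The slope was -2.23 (SE 0.15, edgeR adjusted p = 4.47e-12). In spots of interquartile depth it was -1.99, and in those of 2000 or more UMIs the lowest and highest bins had 1753 and 492 CPM in section 1, and 1843 and 561 CPM in section 2. Counted per spot, AK1 was highest in bin 3 of section 1 and in bin 4 of section 2. Over the bins, 100 spots gave 123.9, 179.5, 214, 191 and 153.9 AK1 UMIs in section 1. Those of section 2 gave 170.8, 231, 235, 248 and 206. Scaled to the number of spots, the curvature coefficient of AK1 was -3.02 (edgeR adjusted p = 2.92e-06). CKM per 100 spots was 2503 in the lowest and 8096 in the highest bin of section 1 (3378 and 9660.5 in section 2). Per 100 CKM UMIs there were 4.95, 4.86, 4.8, 3.37 and 1.9 AK1 UMIs in section 1 and 5.06, 4.85, 4.22, 3.39 and 2.13 in section 2, a ratio that declined in the upper bins. The genes most like AK1 were MYL1, a fast myosin light chain, and the glycolytic and glycogenolytic genes ENO3 and PYGM (Pearson r of 0.998, 0.996 and 0.996).

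AMPD1, the muscle AMP deaminase that opens the purine nucleotide cycle, followed AK1. It stood at 335, 294, 236, 205 and 125 CPM over the MYH7 bins of section 1 and at 358, 338, 245, 223 and 125 CPM over those of section 2. Every step was downward in both sections, with a slope of -1.91 (SE 0.17, edgeR adjusted p = 8.65e-10). Over the 10 sums AK1 and AMPD1 had a Pearson r of 0.98, a description of points that share libraries and bins. AK1 had an r of 0.97 with GAMT and 0.95 with ADSS1, so the likeness was not particular to AMPD1. Per 100 AMPD1 UMIs there were 519, 524, 601, 465 and 403 AK1 UMIs in section 1 and 521, 470.2, 525, 415 and 457 in section 2, with no steady course and with overlapping intervals other than those of the middle and the highest bin of section 1. PGM1, ALDOA and LDHA, genes of glycogen use and glycolysis, ran most closely beside AMPD1 (0.988, 0.987 and 0.986).

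ADSS1, which joins IMP to aspartate in muscle, stood at 515, 424, 514, 353 and 276 CPM in section 1 and at 553, 461, 406, 330.3 and 294 CPM in section 2. It fell, with a slope of -1.21 (SE 0.14, edgeR adjusted p = 1.49e-07), but its middle bin in section 1 was as high as its lowest. ADSL, which closes the cycle and also serves purine synthesis in all cells, was the exception. Its levels were 35.3, 41.7, 64.7, 60.3 and 53.5 CPM in section 1 and 49.2, 61.5, 42.5, 56.2 and 51.1 CPM in section 2, from only 186 and 283 UMIs in all. The slope was 0.11 (SE 0.28, edgeR adjusted p = 0.894), and each section's bins overlapped in their intervals. The first and second enzymes of the cycle thus fell along the MYH7 share. The slope of ADSL with 2 SE to either side ran from -0.44 to 0.66, and from -0.77 to 0.99 with the wider SE that its p-value stands for. Both ranges leave out slopes as low as the fitted ones of ADSS1 and AMPD1, though the difference between genes was not tested. Genes nearest in course to GAMT were NUDT3, JPH1 and KCNJ11 (0.988, 0.985 and 0.984), and to ADSS1 RPL23 and LMOD1 (0.989 and 0.981).

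The shape between the ends differed among members. The square of the MYH7 share was tested in the same model, and 2.39% of 4232 genes had a positive and 3.73% a negative coefficient that passed. CKM was among the first (1.22, SE 0.29, edgeR adjusted p = 0.00134) and AK1 among the second (-1.64, SE 0.41, edgeR adjusted p = 0.00308), and the other 5 members did not pass. On a log scale a level that declines in a straight line already bends downward, so the levels were also set against a straight CPM line between the end bins, a comparison chosen after the test. The middle bin of CKM stood at 29557 CPM in section 1, where the line gave 31039, and at 30454 CPM in section 2, where it gave 31939, below the line in both. AK1 stood at 1419 CPM in section 1, where the line gave 1148, which is outside its interval of 1290 to 1559 CPM. In section 2 it stood at 1285 CPM, where the line gave 1236, inside the interval of 1193 to 1382 CPM. So AK1 held above the straight line in section 1 and did not leave it in section 2. CKMT2 lay on the line within counting error in every middle bin of both sections. The CKM coefficient did not pass without section 2 (edgeR adjusted p = 0.358) or without the spots richest in matrix genes (0.139), and that of AK1 did not pass without section 1 (0.372).

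Levels per bin could hide a mixture of spots, so spots were thinned to 500 UMIs each and shallower ones left out. CKM then had a median of 17, 16, 15, 15 and 13 UMIs per spot over the MYH7 bins of section 1 and 19, 17, 16, 14 and 14 in section 2. Its variance over its mean lay between 1.24 and 1.61, above the value of 1 that counting alone gives. The bins lost spots unevenly to this step, 166 of 398 in the lowest and 4 of 644 in the highest bin of section 1, and 147 of 576 and 8 of 726 in those of section 2. AK1 was seen in 57.3%, 54.9%, 53.9%, 33.6% and 20.3% of thinned spots in section 1, and in 60.4%, 50.3%, 48.6%, 39.9% and 23.4% in section 2. The share with CKMT2 was 30.2%, 32.2%, 37.1%, 48.7% and 52.8% in section 1, and 29.6%, 34.0%, 42.9%, 44.2% and 55.3% in section 2. Unthinned and over all spots of a bin, the AK1 share was 61.1% in the lowest and 71.9% in the highest bin of section 1. The highest bin was also the deepest.

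**Figure D4:**
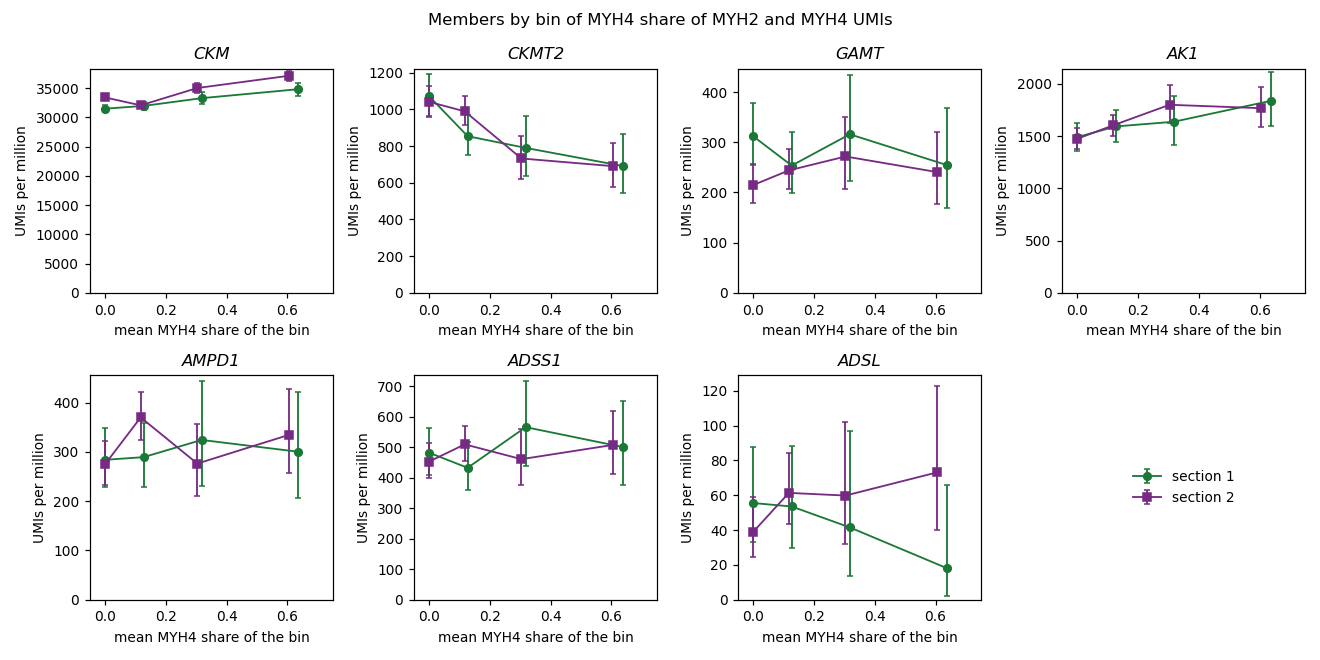
Level of each member (CPM, y axis from 0) in the 4 bins of MYH4 share among spots with an MYH7 share of 0.5 or less, drawn at the mean share of each bin. Green circles are section 1, purple squares section 2, and bars are exact Poisson 95% intervals. CKMT2 declines to 691 and 690.2 CPM while CKM and AK1 are highest in 1 of the upper 2 bins; counted per spot, CKM and AK1 had negative slopes that did not pass.

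Within the fast spots, the question was whether the members also differ between MYH2-rich and MYH4-rich tissue. Of the 7, CKM and AK1 rose and CKMT2 fell with the MYH4 share in CPM, and GAMT, AMPD1, ADSS1 and ADSL did not pass. Of 2238 genes tested, 2.32% rose and 2.5% fell. MYH4 itself went up by design, while MYH7 stayed between 3093 and 3957 CPM over these bins in section 1 and between 3132 and 3771 CPM in section 2. The median spot had 919, 1076, 735 and 619.5 UMIs over the bins of section 1 and 1078, 1427, 981 and 812 over those of section 2.

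CKMT2 stood at 1071, 854, 789.7 and 691 CPM over the MYH4 bins of section 1 and at 1040.4, 989, 732 and 690.2 CPM over those of section 2. The fall went through every step in both sections, and its slope was -0.99 (SE 0.20, edgeR adjusted p = 0.00137). CKM stood at 31497, 31967, 33293 and 34833 CPM in section 1 and at 33419, 32070.5, 35031 and 37128 CPM in section 2 (slope 0.32, SE 0.07, edgeR adjusted p = 0.00538). AK1 stood at 1491, 1593, 1638 and 1838 CPM in section 1 and at 1475, 1603, 1800.1 and 1767 CPM in section 2 (slope 0.50, SE 0.15, edgeR adjusted p = 0.0398). Per 100 CKM UMIs, CKMT2 declined over the bins, with 3.40, 2.67, 2.37 and 1.98 in section 1 and 3.11, 3.08, 2.09 and 1.86 in section 2. AK1 per 100 CKM was 4.73, 4.98, 4.92 and 5.28 in section 1 and 4.41, 5.0, 5.14 and 4.76 in section 2, with overlapping intervals at the ends.

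These calls along the MYH4 share were less stable than those along the MYH7 share. Without section 2 none of the 3 passed, and without section 1 AK1 did not (edgeR adjusted p = 0.202). In spots of interquartile depth CKM still passed, but CKMT2 (slope -0.77, edgeR adjusted p = 0.154) and AK1 (0.52, edgeR adjusted p = 0.162) did not. With at least 10 myosin UMIs per spot CKM had a slope of 0.17 and did not pass (edgeR adjusted p = 0.289). With no filter on low counts neither CKM (slope 0.13, edgeR adjusted p = 0.876) nor AK1 (0.31, edgeR adjusted p = 0.698) passed, and AK1 did not pass with bins of equal spot number (edgeR adjusted p = 0.0537). AMPD1, which moved with AK1 along the MYH7 share, stood at 284, 289, 324 and 300.2 CPM in section 1 and at 275, 370.0, 276 and 335 CPM in section 2. Its slope of 0.24 had an SE of 0.29, so an increase as large as that of AK1 was not detectable.

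No member passed the test of a difference in slope between the sections. The product of section and MYH7 share passed for 0% of 4232 genes by edgeR, with 102 at an unadjusted p under 0.05, none of them a member. That of section and MYH4 share passed for 0.0447% of 2238 genes, with 137 at an unadjusted p under 0.05, among them ADSL (edgeR adjusted p = 0.746). ADSL stood at 55.6, 53.6, 41.6 and 18.2 CPM over the MYH4 bins of section 1, the last from 2 UMIs, and at 39.1, 61.4, 59.9 and 73.2 CPM over those of section 2.

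Around the 7 enzymes, the genes that carry adenine nucleotides across the mitochondrial membranes rose with the MYH7 share. Of 6 listed, 5 were tested and 4 rose: SLC25A4 (slope 0.99, SE 0.13), and the outer membrane channels VDAC3 (0.93, SE 0.14), VDAC2 (0.72, SE 0.17) and VDAC1 (0.50, SE 0.15). SLC25A6, another ADP/ATP carrier, had a slope of 0.23 and did not pass. SLC25A4 had 1295, 1319.5, 1513, 1983 and 2216 CPM over the MYH7 bins of section 1 and 1237, 1361, 1634, 1992 and 2286 CPM over those of section 2. Along the MYH4 share SLC25A4 fell, with a slope of -0.59 (edgeR adjusted p = 0.0329), the only call among the pathway genes outside the 7 there. The median slope of the 5 along the MYH7 share was 0.72.

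Subunits of the AMP-activated protein kinase, which reads AMP, went in opposite directions. Of 8 genes listed for the kinase and its activation, 4 were tested: PRKAG3, the gamma subunit of fast muscle, fell (slope -1.83, SE 0.31, edgeR adjusted p = 3.81e-05), PRKAG1 rose (1.66, SE 0.45, edgeR adjusted p = 0.00667), and STK11, a kinase that activates it, and the beta subunit PRKAB2 did not pass. PRKAG3 had 11, 21, 11, 13 and 36 UMIs over the bins of section 1, so its levels rest on few counts. Of 9 other adenylate and nucleotide kinases, 4 were tested. AK3, the GTP-using adenylate kinase of the mitochondrial matrix, rose (0.86, SE 0.25, edgeR adjusted p = 0.00961) and the guanylate kinase GUK1 fell (-1.50, SE 0.53, edgeR adjusted p = 0.0355), while AK6 and NME2 did not pass. AK1 in the cytosol and AK3 in the mitochondria thus had slopes of opposite sign, as CKM and CKMT2 did.

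Of 12 genes of purine salvage and breakdown, 3 were tested. The cytosolic nucleotidases NT5C2, which prefers IMP and GMP, and NT5C1A, which prefers AMP, rose (slopes 1.97, SE 0.40, and 1.15, SE 0.28). GMPR, which turns GMP into IMP, did not pass. Both tested genes of purine synthesis, PRPS1 and PRPS2, did not pass, and none of the 3 other AMP deaminases and adenylosuccinate synthases was deep enough to be tested. Of the 4 other creatine kinases listed only CKB matched a symbol, and it was not tested.

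**Figure D5:**
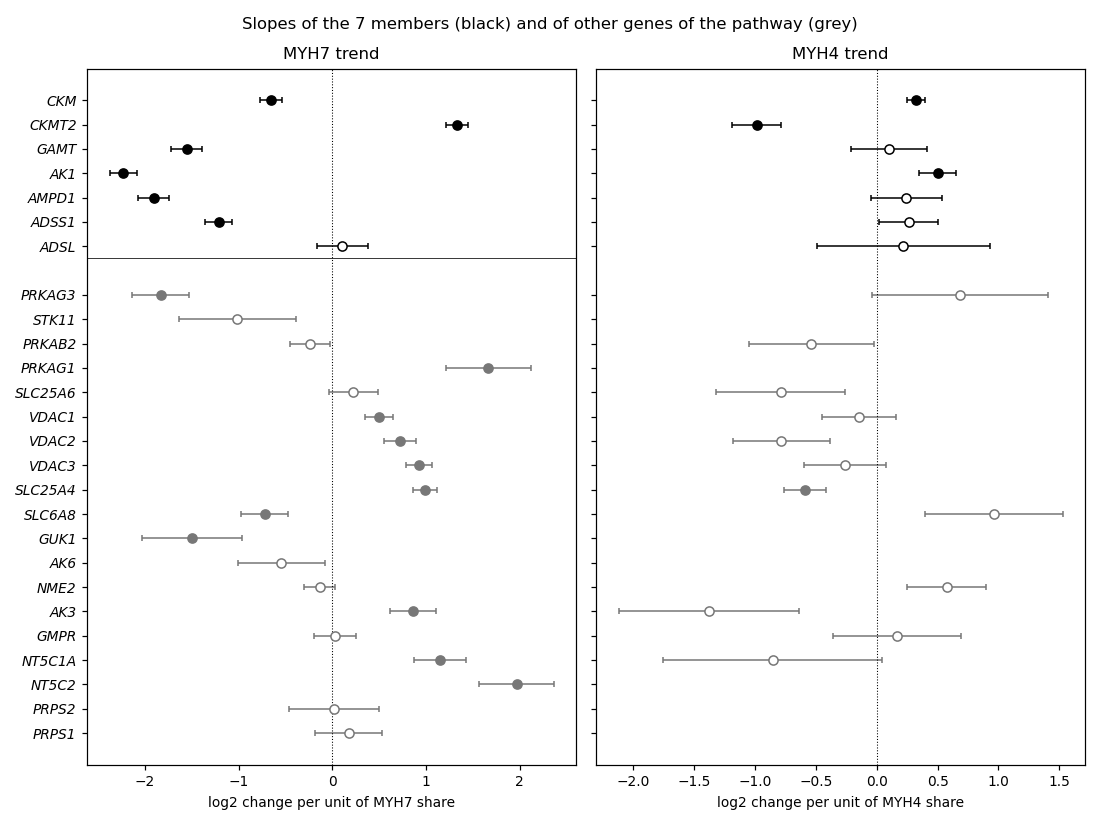
Slope on the MYH7 share (left) and on the MYH4 share (right), in log2 units of level per full unit of share, for the 7 members (black) and for other tested genes of the pathway (grey), with bars of 1 SE. Filled points passed edgeR's test at an adjusted p of 0.05. CKMT2 lies with SLC25A4 and the VDAC genes to the right of 0 in the left panel. In the right panel they lie to the left of 0, and no VDAC gene passed there. Scaled to the number of spots, all 7 members had positive slopes along the MYH7 share.

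Markers of other cell types were followed over the same bins. The 8 markers of fibroblasts and matrix, all detected, took 0.128%, 0.170%, 0.172%, 0.103% and 0.0618% of UMIs over the MYH7 bins of section 1 and 0.120%, 0.131%, 0.164%, 0.0963% and 0.0617% in section 2. Of the 8, 7 fell along the MYH7 share. Over the MYH4 bins they took 0.131%, 0.175%, 0.180% and 0.184% in section 1 and 0.106%, 0.149%, 0.150% and 0.143% in section 2. The members kept their trend calls without the spots richest in matrix genes. Markers of fat cells, endothelium, smooth muscle and macrophages took at most 0.0567% of UMIs in any bin, those of blood at most 0.355%, and 6 muscle fibre markers between 10.8% and 18.6%. Along the MYH7 share 2 of 3 tested fat cell markers, 2 of 3 macrophage markers and 1 of 4 smooth muscle markers fell, none of 3 endothelial markers passed, and 4 of the 6 fibre markers fell and 1 rose (TNNT1, a slow troponin). Along the MYH4 share MYLPF and TNNT3, genes of fast fibres, rose and no other listed marker passed. Whether other cells take part in the slopes of the members was not tested.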

How the data were processed

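The deposited matrices hold UMI counts for each gene in each spot, which the authors made with Space Ranger 1.1 on a custom Sscrofa11.1 reference, without normalization. Per the labels, porcine carrier RNA was added to the libraries, and what became of its reads is not stated there. Section 1 held 3633249 UMIs in 2487 deposited spots and section 2 held 5382677 in 2939; the 2104 barcodes they share are slide positions, not cells. Spots over 25% mitochondrially encoded UMIs (8 and 2) and then the 2% with the fewest UMIs were removed, after limits the study gives, with its low-quality spots taken here as those of fewest UMIs; spot positions, a limit on genes per spot and its manual removal of spots were not used here. Genes in fewer than 15 spots of a section, 5 haemoglobin genes and the 3 myosins stayed out of the tests, and 796 of 15086 features without a symbol got a name from a table of the same assembly.

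UMIs were summed per section and bin, since spots are not replicates, into 10 sums (MYH7) or 8 (MYH4), and compared in edgeR 4.0.16 under R 4.3.3: TMM, filterByExpr (minimum count 10), glmQLFit and glmQLFTest, Benjamini-Hochberg over all tested genes, threshold 0.05. The section was a block because its bins come from the same muscle and library, so the p-values rest on the spread among sums only. The trend fits had 7 (MYH7) and 5 (MYH4) residual degrees of freedom. To these edgeR added prior degrees of freedom drawn from the spread of all tested genes, 18.8 (MYH7), 37.8 (MYH4) and 174.7 (MYH7 curvature). The p-values therefore lean on that shared spread. Likeness was Pearson r of log2 CPM (prior count 2) among genes with a symbol and a mean of at least 50 CPM, for members with at least 500 UMIs in both sections. Other pathway genes were named where they passed a trend test, up to 4 of a list, plus CKB; any others named were picked after their values were seen. Alternatives were DESeq2 1.42.0, other filters, bins, depths and scalings, no block, and leaving out a section. Positions and sequences are from RefSeq for Sscrofa11.1 (samtools 1.23.1). The members and lists were chosen with earlier results of these data known. CKMT1, CKMT1A, CKMT1B, PFAS, IMPDH2, TTN, MB and HBA1 matched no symbol.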

Additional observations from a re-analysis of the deposited data

How the results depend on the processing

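Along the MYH7 share, CKMT2, GAMT, AK1, AMPD1 and ADSS1 kept direction and call under every alternative that kept scaling to UMIs: DESeq2 size factors, no filter on low counts, 10 myosin UMIs, bins of equal spot number, interquartile depth, no matrix-rich spots, no replicate block and each section left out. CKM lost its call at interquartile depth and without section 2. Scaled by the number of spots, which moved the median slope of all genes to 2.41 (MYH7) and -0.88 (MYH4), the MYH7 slopes of CKM (1.88), GAMT (0.96), AK1 (0.30), AMPD1 (0.63) and ADSS1 (1.31) turned positive and ADSL passed (2.58). 6 members were then called higher and 0 lower, with 3672 genes higher and 2 lower. Relative to that median the slopes were -0.53 for CKM, -2.11 for AK1 and 1.43 for CKMT2. The MYH4 slopes turned negative for CKM (-0.60) and AK1 (-0.43), with 0 genes and 0 members higher and 141 genes lower, and the curvature coefficient of CKM was -0.13. The median UMIs per spot rose with the MYH7 share in both sections and were fewest in the last MYH4 bin. What sets the depth of the bins was not tested.

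At interquartile depth 274 genes fell along the MYH7 share, against 558. Leaving out a section gave 247 to 359 genes higher and 180 to 297 lower; for the MYH4 share it gave 11 to 27 genes higher and 22 to 23 lower, with 0 to 1 members higher and 0 to 1 lower. Other MYH4 counts moved too, against 52 genes and 2 members higher, and 56 genes and 1 member lower. With no filter on low counts 10 genes and 0 members were higher, and with 10 myosin UMIs 33 genes and 1 member. Bins of equal spot number gave 1 member higher, interquartile depth 25 genes and 1 member higher with 26 genes and 0 members lower, and the fit without the replicate block 0 members higher (CKM adjusted p = 0.106, AK1 0.0836, edgeR). Dropping the block changed no other member's call. The cause of these changes was not tested.

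Counts were fewest for ADSL, with at most 134 UMIs in a bin, and for all members in the last MYH4 bin, which held 109925 and 191255 UMIs.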
